A study of Mus musculus with 8 samples.

Results

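The genes described here are 10 genes of the activator protein 1 (AP-1) and immediate early response: Jun, Junb, Jund, Fos, Fosb, Fosl2, Egr1, Atf3, Ier2 and Dusp1. They were chosen by name, and all 10 were found among the 48709 gene identifiers of the count files. Of these, 9 passed the filter on low counts together with the rest of the 12696 genes tested, and Fosb did not. The study grew blood stem and progenitor cells of C57Bl/6J mice, sorted as lineage-negative, Sca1-positive and cKit-positive cells, with 100 µM malonyl-CoA or with no added malonyl-CoA (control). Malonyl-CoA is the building block that fatty acid synthase adds to a growing fatty acid chain. Both groups were seeded at 10000 cells per well and kept free of serum, fed with 2 cytokines (Flt3 ligand, 2 ng/ml, and stem cell factor, 100 ng/ml), and their progeny were collected after 7 days. The labels name no genetic change beyond the strain, and the age of the mice is not used here. Each group had 4 libraries of total RNA, numbered 1, 3, 4 and 5 in both. They are described as biological replicates, but the labels do not say whether a number stands for a mouse, a pool of mice or a culture. The p-values therefore measure the spread between these samples, which may not be the spread between mice.

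AP-1 is a transcription factor made of a pair of proteins, one of the Jun family (Jun, Junb, Jund) with a Jun, Fos (Fos, Fosb, Fosl2) or Atf protein. Jun proteins can pair with each other, whereas Fos proteins need a partner from another family. Many of these genes are transcribed within minutes of a growth factor, cytokine or stress signal through MAP kinases, need no new protein for it, and make short-lived RNA. In blood cells AP-1 is known for its part in the differentiation of monocytes and macrophages and in the induction of inflammatory cytokines. Dusp1, a phosphatase that switches off p38 and JNK, is made in the same response and damps it.

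The libraries held 17492085 to 22079844 reads counted to genes. The label was checked against marker genes. After 7 days all 8 libraries expressed the progenitor genes Kit (204 to 320 CPM, read counts scaled to a common library size) and Cd34 (430 to 643 CPM). Kit was used in the sort and is named here after its values were seen. At a far higher level they expressed the granulocyte precursor gene Mpo (6310 to 11880 CPM). Other stem and progenitor markers were low, with Mecom at 0.419 to 0.849, Slamf1 at 1.25 to 3.57 and Procr at 0.0932 to 9.58 CPM. Ly6a, the gene of Sca1, was at 24.7 to 110 CPM. Kit is also one of the mast cell and basophil markers, of which Mcpt8 was the most abundant (241 to 386 CPM). The summed level of 12 stem and progenitor markers was 1116 to 1172 CPM in malonyl-CoA libraries, against 1206 to 1323 CPM in controls, so the groups did not overlap, although 6 of the 12 had a positive and 6 a negative log2 fold change and Cd34 was the most abundant. Of the granulocyte markers, all 11 tested had a negative log2 fold change with malonyl-CoA, with a median of -0.36, and their summed level was 13363 to 17186 CPM with malonyl-CoA and 12989 to 20683 CPM in controls. The summed monocyte markers, 10 tested genes, ranged from 1356 to 1680 CPM with malonyl-CoA and from 1225 to 1722 CPM in controls, and the library numbered 4 was the lowest of its group in each. None of the marker genes passed an adjusted p of 0.05 in edgeR's quasi-likelihood test. The defining T cell gene Cd3e and the erythroid genes Hba-a2, Alas2 and Slc4a1 were at 0 in all 8 libraries. Other genes of these lists were expressed. Il7r, of the B and T cell markers, was at 44.2 to 73.4 CPM. Of the erythroid markers, Tfrc was at 696 to 809 CPM and Gata1 at 13.9 to 19.0 CPM. In these bulk samples a change in the share of a cell type and a change in RNA per cell cannot be told apart, and the part of cell makeup in the values below was not tested.

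No gene of the 9 tested passed an adjusted p of 0.05 in edgeR's quasi-likelihood test with Benjamini-Hochberg adjustment, in either direction, and neither did any of the 12696 genes (0% called). At an unadjusted p under 0.05, 2 of the 9 were higher with malonyl-CoA, Jun and Junb, where 5.43% of all genes were, and 0 were lower, where 4.1% of all genes were. The same 2 genes were the ones whose 4 malonyl-CoA libraries all lay above the 4 controls, which held for 3.21% of all genes tested. In 0 of the 9 did all 4 malonyl-CoA libraries lie below the controls, which held for 2.93% of all genes. The fitted log2 fold change was positive for 8 of the 9 genes, against 53.4% of all genes, and negative for 1, against 46.6%, with a median of 0.44 against 0.02 over all genes. When the fit included a correction for GC content, 5 of the 9 were positive, with a median of 0.27, and Fosl2, Egr1 and Ier2 changed sign. Without control library 4 the median of the 9 was 0.24. DESeq2 called 0 of the 10 genes, where it called 0.469% of genes higher and 0.123% lower. An edgeR fit blocked on library number called 1 of the 9 genes higher, Jund, and 0 lower, where it called 1.13% of all genes higher and 0.221% lower.

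**Figure D1:**
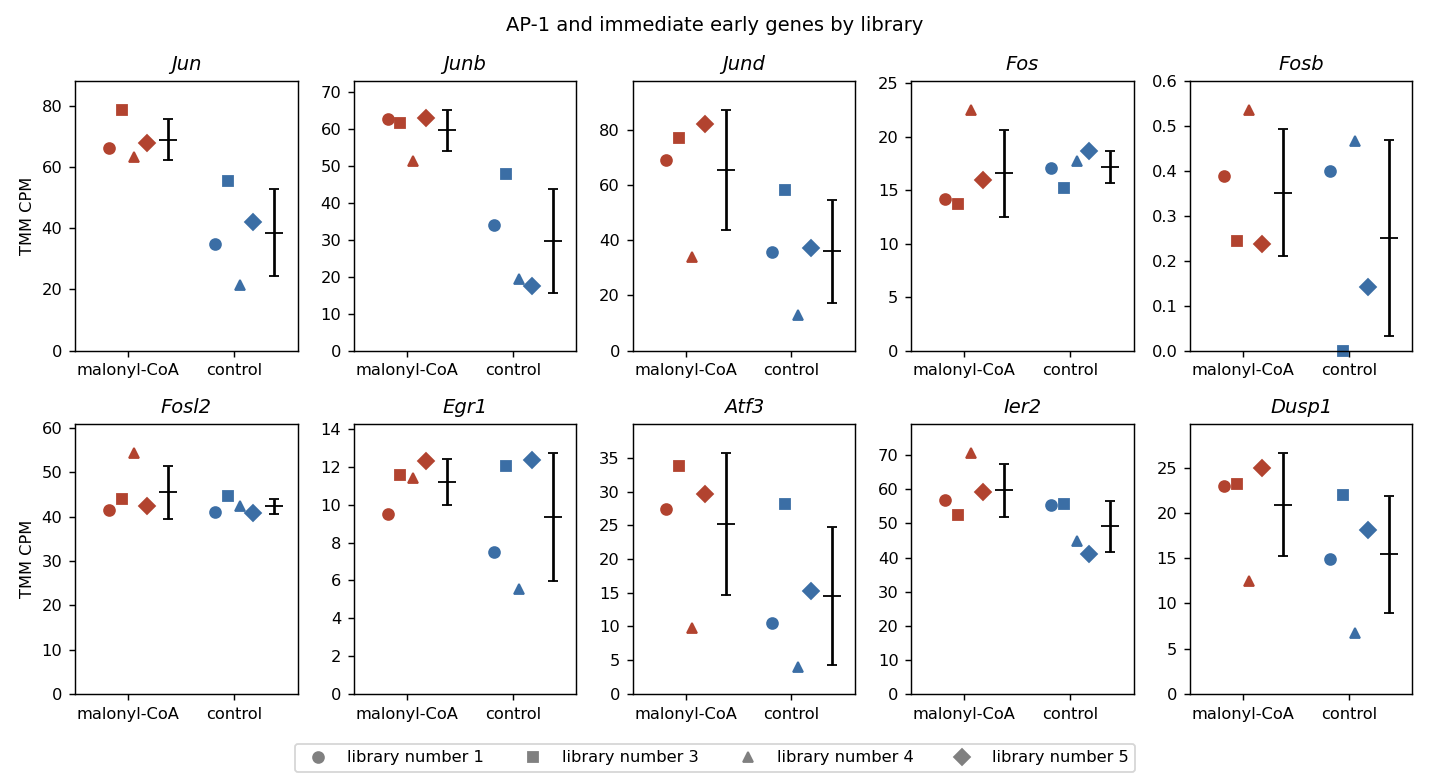
Level of each of the 10 genes in every library, in CPM scaled by the trimmed mean of M-values, with malonyl-CoA left and control right; each point is a library and the bar is the mean ± SD (n = 4). The groups separate in Jun and Junb, while control library 4 is the lowest of the 8 in Jun, Jund, Atf3, Dusp1 and Egr1.

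Junb, Jund and Jun had the highest fitted fold changes of the 9 tested genes. Jun, whose protein is the best-known AP-1 subunit and a target of the JNK kinases, lies on chromosome 4 (GRCm38, chr4:95049034-95052222, minus strand) as a gene of 1 exon. Its level was 66.1, 78.6, 63.2 and 67.8 CPM in malonyl-CoA libraries 1, 3, 4 and 5, against 34.9, 55.5, 21.6 and 42.1 CPM in control libraries 1, 3, 4 and 5. The lowest malonyl-CoA value lay above the highest control value, and the controls were the more spread of the 2 groups, with control 4 lowest. The means were 68.9 ± 6.74 CPM with malonyl-CoA and 38.5 ± 14.2 CPM in controls (SD, n = 4 each). On the log2 scale the difference was 0.84 (SE 0.24, 95% interval 0.30 to 1.38). Its unadjusted p of 0.00642 in edgeR's quasi-likelihood test became 0.391 after adjustment over all genes, and Jun stood at rank 208 of 12696 by p. Leaving out each library in turn gave log2 fold changes of 0.64 to 1.07.

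Junb, a Jun protein that often restrains growth driven by Jun and is known for holding back the expansion of myeloid cells in mice, lies on chromosome 8 (chr8:84974484-84978718, minus strand). It had 62.7, 61.6, 51.5 and 63.0 CPM in malonyl-CoA libraries 1, 3, 4 and 5, against 33.9, 47.8, 19.4 and 17.5 CPM in the controls in the same order. As with Jun, no malonyl-CoA library fell into the range of the controls, and the 4 malonyl-CoA values were closer together. Means were 59.7 ± 5.50 CPM with malonyl-CoA and 29.7 ± 14.1 CPM in controls (SD, n = 4 each). The log2 fold change was 1.01 (SE 0.29, 95% interval 0.36 to 1.67), with an unadjusted p of 0.00638 and an adjusted p of 0.391 in edgeR's quasi-likelihood test. It ranged from 0.83 to 1.34 when single libraries were left out.

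Jund, the Jun gene that most resting cells express steadily, lies on the same chromosome (chr8:70698949-70700616, plus strand). Its malonyl-CoA libraries had 68.9, 77.1, 34.0 and 81.9 CPM, and its controls 35.7, 58.2, 12.8 and 37.3 CPM. The library numbered 4 was the lowest of its group on both sides, and malonyl-CoA 4 lay below 3 of the 4 controls, so the groups overlapped. Means were 65.5 ± 21.7 CPM with malonyl-CoA and 36.0 ± 18.6 CPM in controls (SD, n = 4 each), and the log2 fold change of 0.86 (SE 0.41, 95% interval -0.06 to 1.79) had an adjusted p of 0.515 in edgeR's quasi-likelihood test. It was 0.38 with the GC correction and 0.58 without control 4 (Junb was 0.66 with the GC correction).

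The counts of the Jun family carry a limit from overlapping genes. Jun overlaps the antisense gene Junos, which had 28 to 66 counts per library against 463 to 1609 for Jun. Jund overlaps the antisense gene Gm11175, with 6 to 19 counts. Junb shares 173 exonic bases with Prdx2, a peroxiredoxin gene that had 3791 to 5109 counts per library against 373 to 1288 for Junb. The library kit marks strand, but whether the counting used it is not given in the sources used here. The split of reads between these pairs is therefore uncertain, and so are the counts of Jund and its level per length.

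The Fos family did not separate the groups. Fos, the immediate early partner of Jun, is a gene of chromosome 12 (chr12:85473890-85477273, plus strand). It had 14.2, 13.7, 22.5 and 16.0 CPM in malonyl-CoA libraries 1, 3, 4 and 5 and 17.1, 15.2, 17.7 and 18.6 CPM in controls. Of the malonyl-CoA values, 3 lay below the control mean and the one of library 4 lay above every control. Means were 16.6 ± 4.07 CPM with malonyl-CoA and 17.2 ± 1.47 CPM in controls (SD, n = 4 each). Its log2 fold change of -0.05 (SE 0.18, 95% interval -0.45 to 0.35) had an adjusted p of 0.914 in edgeR's quasi-likelihood test. It was -0.24 without malonyl-CoA 4, and turned to 0.019 without malonyl-CoA 1 and 0.035 without malonyl-CoA 3.

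Fosl2, also called Fra-2, a longer-lived Fos protein, had 41.4, 43.9, 54.3 and 42.4 CPM with malonyl-CoA and 41.1, 44.7, 42.4 and 40.8 CPM in controls. The control values lay within a few CPM of each other, and only malonyl-CoA 4 lay above them all. The log2 fold change was 0.11 (SE 0.12, 95% interval -0.17 to 0.38, adjusted p = 0.701 in edgeR's quasi-likelihood test) and 0.0016 without malonyl-CoA 4. Fosb, a Fos gene best known from neurons, was near the limit of detection, with 8, 5, 12 and 4 counts in malonyl-CoA libraries and 7, 0, 10 and 3 counts in controls. The 0 in control 3 allows a level of up to 0.159 CPM, a floor of 3 counts that covers counting error only.

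Atf3, a stress-induced partner of Jun proteins that mostly represses transcription and damps inflammatory genes in macrophages, varied more between libraries than any other tested gene of the 9. It had 27.4, 33.8, 9.83 and 29.6 CPM in malonyl-CoA libraries 1, 3, 4 and 5, against 10.5, 28.1, 4.05 and 15.3 CPM in controls. The library numbered 4 was again the lowest of its group on both sides, and control 3 lay within the range of the malonyl-CoA values. Means were 25.1 ± 10.5 CPM with malonyl-CoA and 14.5 ± 10.2 CPM in controls (SD, n = 4 each). The log2 fold change of 0.80 (SE 0.53, 95% interval -0.39 to 1.98) had an adjusted p of 0.550 in edgeR's quasi-likelihood test. It was 1.34 without control 3 and 0.48 without control 4.

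Dusp1 had 23.0, 23.2, 12.5 and 25.0 CPM with malonyl-CoA and 14.9, 22, 6.75 and 18.1 CPM in controls. The library numbered 4 was the lowest of its group on both sides, and malonyl-CoA 4 lay below 3 of the 4 controls. The order of the 8 libraries from highest to lowest was the same in Dusp1 as in Jund: malonyl-CoA 5, 3 and 1, control 3, 5 and 1, malonyl-CoA 4 and control 4. Means were 20.9 ± 5.70 CPM with malonyl-CoA and 15.4 ± 6.47 CPM in controls (SD, n = 4 each), with a log2 fold change of 0.44 (SE 0.34, 95% interval -0.32 to 1.20, adjusted p = 0.586 in edgeR's quasi-likelihood test). It was 0.66 without control 3, 0.19 without control 4 and 0.27 with the GC correction. Dusp1 shares 11 exonic bases with the neighbouring gene Ergic1.

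Egr1, a zinc finger transcription factor induced through serum response factor, had 9.5, 11.6, 11.4 and 12.3 CPM in malonyl-CoA libraries and 7.53, 12, 5.54 and 12.3 CPM in controls. Controls 3 and 5 lay beside the malonyl-CoA libraries and controls 1 and 4 below them. The log2 fold change of 0.26 (SE 0.25, 95% interval -0.30 to 0.82, adjusted p = 0.652 in edgeR's quasi-likelihood test) was 0.070 without control 4. Ier2, a small nuclear protein of the immediate early class, had 56.8, 52.5, 70.6 and 59.1 CPM with malonyl-CoA and 55.3, 55.7, 44.8 and 40.9 CPM in controls. Here malonyl-CoA 4 was the highest of the 8 and controls 4 and 5 the lowest. The log2 fold change was 0.28 (SE 0.15, 95% interval -0.04 to 0.61, adjusted p = 0.515 in edgeR's quasi-likelihood test) and 0.18 without malonyl-CoA 4.

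**Figure D2:**
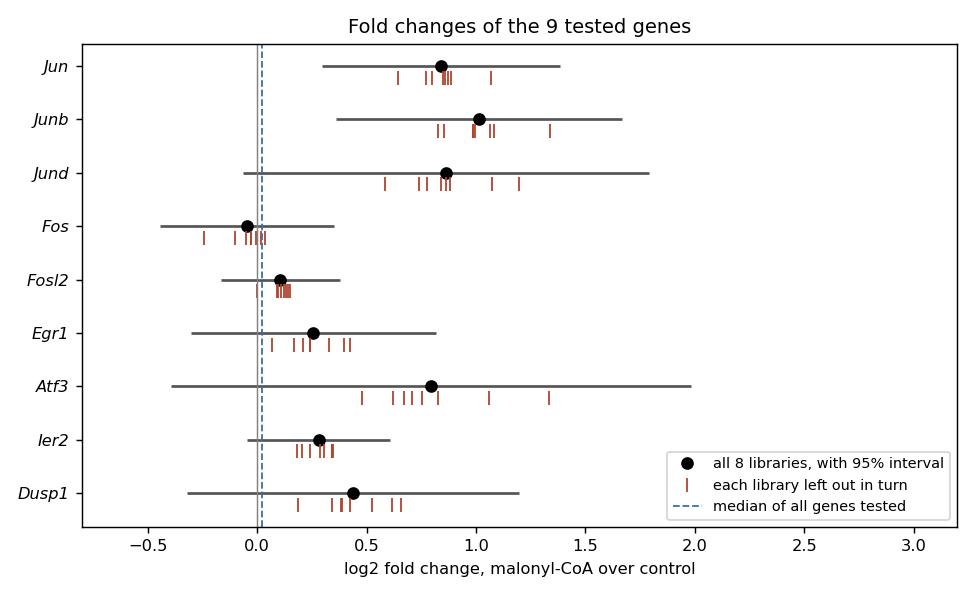
Fitted log2 fold change, malonyl-CoA over control, of the 9 tested genes with its 95% interval (black), the value with each library left out in turn (red ticks) and the median of all genes tested (dashed, 0.02). The intervals of Jun and Junb lie above 0, those of the other 7 include it.

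The genes differed in where the libraries numbered 4 stood within their group. Malonyl-CoA 4 was the lowest of its group in Jun, Junb, Jund, Atf3 and Dusp1, and the highest of its group in Fos, Fosb, Fosl2 and Ier2. In Jun and Junb it still lay above every control. Control 4 was the lowest control in Jun, Jund, Atf3, Dusp1 and Egr1, while control 5 was the lowest in Junb. Averaged over the 9 tested genes, the deviation from each gene's mean over the 8 libraries was 0.285, 0.385, 0.0534 and 0.413 on the log2 scale in malonyl-CoA libraries 1, 3, 4 and 5. It was -0.256, 0.241, -0.932 and -0.190 in the controls in the same order. Control 3 lay above malonyl-CoA 4 by this measure, and control 4 lay far below the other 7 libraries. Malonyl-CoA 4 also had the largest share of reads in no annotated gene, 2.94% against 1.11 to 1.56% in controls. The monocyte, dendritic cell, erythroid, and B and T cell marker sums were the lowest of their group in both libraries numbered 4. The mast cell and basophil sums were the highest of their group in both (1258 CPM in malonyl-CoA 4, 1409 CPM in control 4). So were the stromal and endothelial sums (220 and 191 CPM). The part of these differences in the values was not tested.

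**Figure D3:**
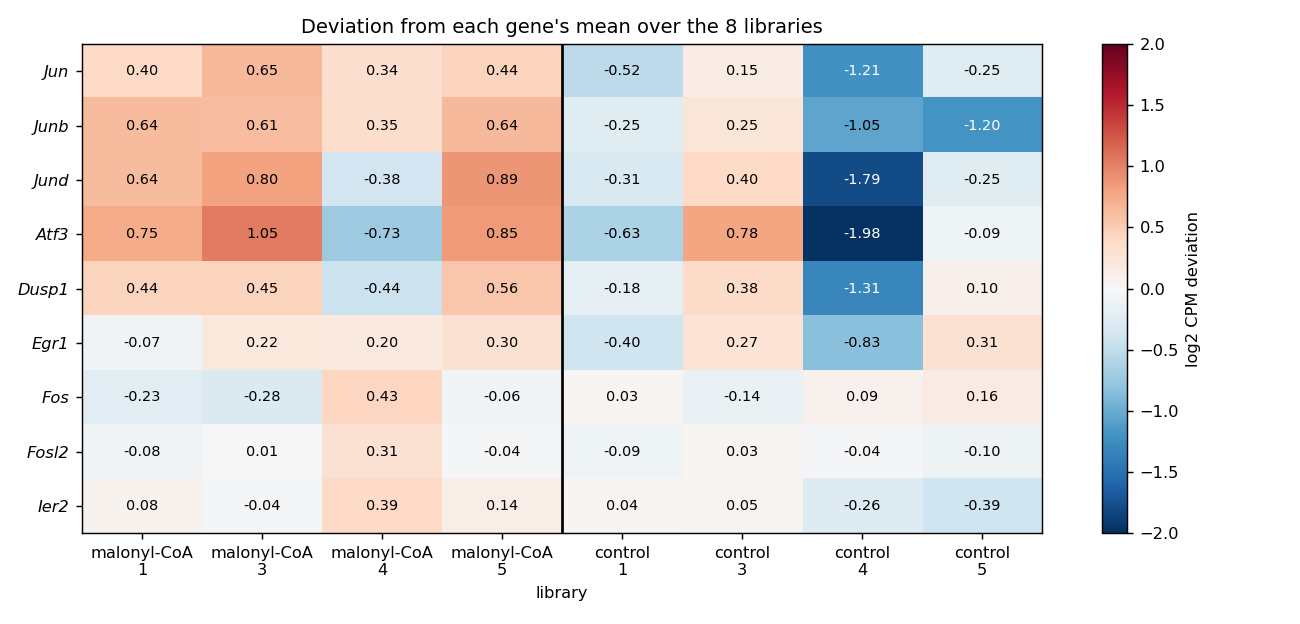
Deviation of each of the 9 tested genes from its own mean over the 8 libraries, in log2 CPM, with malonyl-CoA libraries left of the line and controls right of it. Jun, Junb, Jund, Atf3 and Dusp1 are low in control 4 (-1.05 to -1.98), while Fos, Fosl2 and Ier2 are highest in malonyl-CoA 4.

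Levels of different genes were compared per kilobase of merged exons. Ier2 and Jund stood highest, at 39.3 ± 5.09 and 39.3 ± 13 CPM per kb with malonyl-CoA, where controls had 32.3 ± 4.91 and 21.6 ± 11.1 CPM per kb (SD, n = 4 each). Junb followed at 25.9 ± 2.39 CPM per kb with malonyl-CoA and 12.9 ± 6.14 in controls, and Jun at 21.6 ± 2.11 with malonyl-CoA and 12.1 ± 4.44 in controls. Neighbours in this order overlapped in their ranges from Ier2 down to Fosl2. Within libraries, Jun stood above Atf3 in 8 of 8 and Junb above Jun in 7 of 8, while the other neighbours down to Fosl2 kept their order in 4 to 6 of the 8. Below Fosl2 (4.70 ± 0.615 with malonyl-CoA, 4.37 ± 0.184 CPM per kb in controls) came Egr1 and then Fosb, where the ranges did not overlap and each step held in 8 of 8 libraries. Of the summed per-length level of the 6 Jun and Fos family genes, Jun, Junb and Jund made up 89.6, 90.4, 80.4 and 89.7% in malonyl-CoA libraries 1, 3, 4 and 5, and 80.3, 86.8, 65.6 and 78.0% in controls. The lowest shares of each group were again in the libraries numbered 4, and the groups overlapped. The share of Fos was 7.49 ± 3.23% with malonyl-CoA and 14.0 ± 5.81% in controls (SD, n = 4 each).

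**Figure D4:**
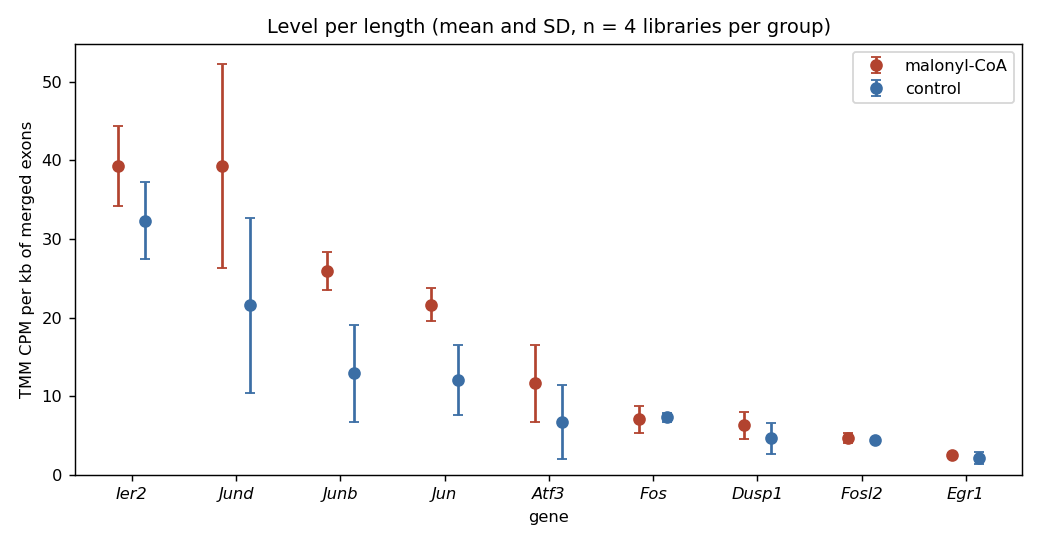
Level per kilobase of merged exons (CPM per kb, mean ± SD, n = 4 libraries per group) of the 9 tested genes, malonyl-CoA left of control for each gene. Ier2 and the Jun family stand highest, and Egr1 is the lowest of the 9.

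Because Jun, Junb, Atf3 and Dusp1 were low in the same library while Fos was not, the bases just upstream of their start sites are shown to set these promoters beside each other. They are the RefSeq windows of GRCm38.p6, 5′ to 3′ on the gene's strand and up to 250 bases long, printed without bases inside an annotated exon, and capitals mark matches to the motifs searched. The windows are chr4:95052223-95052472 for Jun, chr8:84978749-84978998 for Junb, chr17:26508520-26508722 for Dusp1 and chr1:191183341-191183583 for Atf3, all on the minus strand, and chr12:85473640-85473889 on the plus strand for Fos. Those of Atf3 and Dusp1 start inside the annotated gene span, at 34706 and 53656 bases from its outer start.
Jun: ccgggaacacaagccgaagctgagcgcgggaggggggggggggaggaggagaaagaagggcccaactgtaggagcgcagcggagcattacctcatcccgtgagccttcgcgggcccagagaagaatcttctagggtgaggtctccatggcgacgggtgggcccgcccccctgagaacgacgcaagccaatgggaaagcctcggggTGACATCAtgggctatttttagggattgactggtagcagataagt
Junb: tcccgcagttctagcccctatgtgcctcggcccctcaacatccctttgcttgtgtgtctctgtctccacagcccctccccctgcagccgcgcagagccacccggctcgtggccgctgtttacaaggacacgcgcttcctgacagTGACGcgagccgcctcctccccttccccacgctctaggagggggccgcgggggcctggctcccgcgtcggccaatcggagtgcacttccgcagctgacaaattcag
Dusp1: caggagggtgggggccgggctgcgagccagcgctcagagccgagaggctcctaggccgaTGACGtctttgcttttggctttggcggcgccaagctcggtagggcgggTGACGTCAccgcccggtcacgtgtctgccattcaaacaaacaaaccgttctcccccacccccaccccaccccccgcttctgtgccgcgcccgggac
Fos: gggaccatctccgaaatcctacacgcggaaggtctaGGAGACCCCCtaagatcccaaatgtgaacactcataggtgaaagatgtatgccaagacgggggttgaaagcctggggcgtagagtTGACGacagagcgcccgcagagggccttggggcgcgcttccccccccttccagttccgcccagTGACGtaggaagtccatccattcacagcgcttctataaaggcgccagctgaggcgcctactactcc
Atf3: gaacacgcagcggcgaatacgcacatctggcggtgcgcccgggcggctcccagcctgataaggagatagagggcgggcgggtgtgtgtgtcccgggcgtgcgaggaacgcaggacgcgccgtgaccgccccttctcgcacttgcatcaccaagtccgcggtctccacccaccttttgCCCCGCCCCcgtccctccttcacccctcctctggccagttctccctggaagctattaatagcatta
All 250 bases upstream of each RefSeq start were searched on both strands, the exon bases not printed included. The motifs were TGANTCA (the AP-1 site of Jun and Fos pairs), TGACGTCA (the site of CREB and Atf proteins), the CArG box of serum response factor, GGGGCGGGG (a GC box, shown in Atf3 as its reverse complement) and the NF-kB consensus. No window of Egr1 or Ier2 was used, which left 8 windows for the 10 genes, and bases further upstream were not searched. TGANTCA was in none of these 8 windows, where 6.75% of 32851 windows of 250 bases held it. The CArG box, which 1.47% held, was in none of the 8 either. Whether these genes have such sites elsewhere was not tested. TGACGTCA was in the window of Dusp1, ending 136 bases before the start, where 1.55% of windows held it. Another 2 patterns, TGACNTCA and TGACG, were added after the sequences had been seen. The first takes in TGACGTCA, and the second lies inside TGACGTCA. TGACNTCA was found in Jun, as TGACATCA at 45 to 38 bases before the start, and in Dusp1, against 7.49% of windows. TGACG was found in Junb, Fos, Fosb, Dusp1 and Atf3, or 5 of the 8, against 17.8% of windows, and in Atf3 it lies in the 7 bases next to the start that are not printed. The GC box was in the window of Atf3, ending 65 bases before the start, where 10.4% of windows held it, and the NF-kB consensus in those of Fos, Fosb and Fosl2, where 3.9% did. The Fosl2 match lies inside an annotated exon. A match is only a string of letters in the window and says nothing on binding.

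The genes most like the mean of the 9 over the 8 libraries, among 10607 other genes, were Gbp9 (Pearson's r 0.977, Spearman's rho 0.952), Pilrb2 (r 0.972), Rrad (r 0.971), Gpr85 (r 0.971), Nfkbia (r 0.967) and Bend4 (r 0.967). They were picked as the highest of many, so no p is given. Without the libraries numbered 4, r was 0.988 for Gbp9 and 0.936 for Nfkbia. Nfkbia, the inhibitor of NF-kB that NF-kB itself induces, had 123, 132, 103 and 137 CPM with malonyl-CoA against 70.7, 99.0, 51.8 and 89.5 CPM in controls. Its groups did not overlap, and its log2 fold change was 0.67 (SE 0.19, adjusted p = 0.391 in edgeR's quasi-likelihood test).

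Genes around the AP-1 genes were read as 7 lists, and none of their genes passed an adjusted p of 0.05 in edgeR's quasi-likelihood test. Over all genes tested, 3.21% were higher and 2.93% lower with malonyl-CoA without overlap between the groups. Of the other AP-1 and small Maf genes, 11 of 13 were tested, 9 had a positive and 2 a negative log2 fold change, and the median was 0.39, against 0.02 over all genes. With the GC correction these became 7 and 4, with a median of 0.093. Fosl1 (Fra-1, a Fos protein that Jun and Fos induce) had 1.38 ± 0.275 CPM with malonyl-CoA and 0.643 ± 0.132 CPM in controls (SD, n = 4 each), with a log2 fold change of 1.07 (SE 0.25, adjusted p = 0.352 in edgeR's quasi-likelihood test) and no overlap. Maf, a large Maf factor of macrophages, had 3.61 ± 0.496 CPM with malonyl-CoA and 2.01 ± 0.703 CPM in controls, also without overlap (log2 fold change 0.82, SE 0.25). Of this list 3 genes lay above the controls without overlap and 1, Atf2, lay below them (log2 fold change -0.19). Of the other immediate early genes, 26 of 31 were tested, with 22 positive and 4 negative and a median of 0.27. These became 18 and 8, with a median of 0.15, with the GC correction, and 19 and 7, also with a median of 0.15, without control 4. Gadd45b, a growth arrest and stress gene, had 14.5 ± 3.17 CPM with malonyl-CoA and 9.56 ± 0.855 CPM in controls without overlap (log2 fold change 0.60, SE 0.17, adjusted p = 0.391 in edgeR's quasi-likelihood test). Egr4 and Npas4, best known from neurons, were at 0 in all libraries.

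Another 3 lists cover the kinase pathway and the factors above AP-1. The 14 other dual specificity phosphatases and ERK feedback genes had 9 positive and 5 negative values, with a median of 0.08, which turned to 6 and 8 with a median of -0.069 with the GC correction. Dusp6, the phosphatase of ERK that ERK induces, had 113 ± 11.3 CPM with malonyl-CoA and 137 ± 12.6 CPM in controls, with all 4 malonyl-CoA libraries below the controls and a log2 fold change of -0.28 (adjusted p = 0.515 in edgeR's quasi-likelihood test). Of the MAP kinases and their relatives, 24 of 25 were tested, with 15 positive and 9 negative and a median of 0.10, which turned to 10 positive and 14 negative with a median of -0.0063 with the GC correction. Rps6ka4, a kinase downstream of p38 and ERK, had 33.9 ± 1.93 CPM with malonyl-CoA and 25.1 ± 3.77 CPM in controls without overlap (SD, n = 4 each). Its log2 fold change of 0.43 was 0.11 with the GC correction. Map2k4, of the same list, lay below the controls without overlap (log2 fold change -0.13). The 14 genes of serum response factor, its partners and CREB had 10 positive and 4 negative values, with a median of 0.21, which was 0.033 with the GC correction and 0.40 without control 4. Creb1 had 165 ± 7.58 CPM with malonyl-CoA and 188 ± 14.3 CPM in controls (SD, n = 4 each). All 4 malonyl-CoA libraries lay below the controls (log2 fold change -0.19).

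Of 15 genes known as AP-1 targets, 12 were tested, with 11 positive and 1 negative log2 fold change and a median of 0.44, which was 0.38 with the GC correction and 0.30 without control 4. Tnf, the inflammatory cytokine, had 22.3 ± 2.82 CPM with malonyl-CoA and 8.64 ± 5.46 CPM in controls (SD, n = 4 each), with no overlap. Its log2 fold change was 1.37 (SE 0.38, adjusted p = 0.391 in edgeR's quasi-likelihood test). Il1b, another inflammatory cytokine, had a log2 fold change of 1.18 (SE 0.48). Vegfa, the vessel growth factor, had one of 0.39 (SE 0.14) with no overlap between groups. Of the heat shock genes, 9 of 11 were tested, with 6 positive and 3 negative values and a median of 0.17, which was 0.10 with the GC correction. Across all genes 690 had an unadjusted p under 0.05 with a higher and 520 with a lower level in malonyl-CoA libraries.

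**Figure D5:**
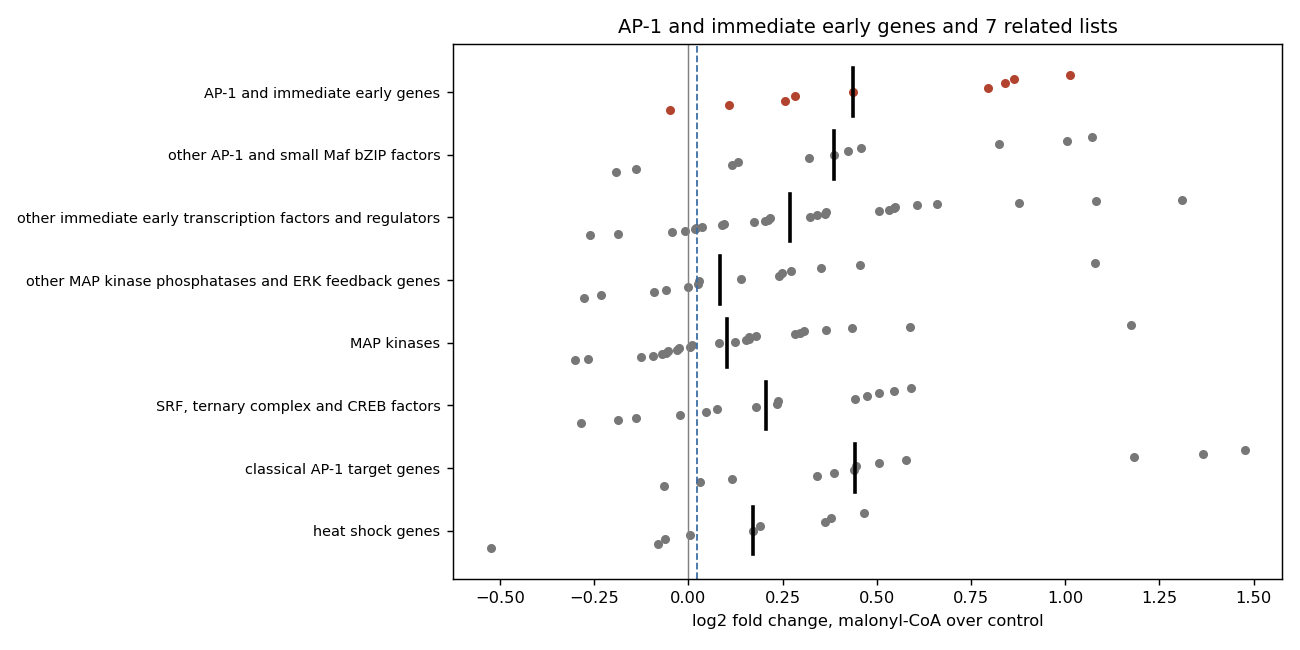
Fitted log2 fold changes, malonyl-CoA over control, of the tested AP-1 and immediate early genes and of the genes of 7 related lists; each point is a gene, black bars are the lists' medians and the dashed line is the median of all genes. The medians are 0.44 for the 9 genes, 0.44 for AP-1 targets and 0.08 for the phosphatases and ERK feedback genes, against 0.02 over all genes.

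By structure most of the 10 genes are compact. The longest annotated transcript has a single exon in 4 of the 10 (Jun, Junb, Jund and Ier2), or 40%, against 8.23% of 12678 tested genes with annotation. The median gene span was 4.70 kb, against 22.2 kb, and the median GC content of the exons 55.8%, against 49.4%. Spans ranged from 1.52 to 56.5 kb, and those of Atf3 and Dusp1 were longer than the median of the tested genes.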

How the data were processed

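Total RNA libraries of 4 malonyl-CoA and 4 control cultures were analysed. The deposited values are raw read counts per gene, 1 library per file. Per the submitters' processing notes the tools were cutadapt 1.8, STAR 2.5.2b and HTSeq 0.6.1 with GRCm38; the annotation release and the strand setting are not stated in those sources. Names, exons and coordinates came from GENCODE M21 (48349 of 48709 identifiers matched). Rows that name no gene stayed out of library sizes; reads in no annotated gene were at most 2.94% of a library, and reads with several positions 38.2 to 51.1%.

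Genes were kept by filterByExpr (minimum count 10, total 15), scaled by TMM and tested with the robust quasi-likelihood test of edgeR 4.0.16 in R 4.3.3, malonyl-CoA over control, with no block, adjusting p over all 12696 genes. CPM values are TMM-scaled. DESeq2 1.42.0, limma-voom 3.58.1, other filters, a GC correction, a replicate block and leaving out libraries were alternatives; the older edgeR dispersion fit and 2 motifs were added after seeing the data. On simulated data modelled on this comparison (12599 genes), 72% of 100 genes changed by 1 on the log2 scale and 95% of those changed by 2 were recovered. Of the 182 genes called there, 15 were unchanged. Counts were drawn independently for each gene, without the shifts that many genes of a library can share, so recovery in the real data may be lower. The genes and lists were chosen with earlier results of these data known. Named genes of a list are its 3 with the lowest p, of which some are given. The most alike genes are the 6 with the highest Pearson's r. Same-numbered libraries were not treated as pairs (the check is in the closing section). Intervals and floors cover counting error or the spread between libraries only.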

Additional observations from a re-analysis of the deposited data

Results flagged for a closer look

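Among 22 groups of 4 libraries checked for a library far from the others, 2 were flagged, both for malonyl-CoA 4: Junb, at 51.5 CPM where the other 3 malonyl-CoA libraries had 61.6 to 63.0 CPM, and Dusp1, at 12.5 CPM where the others had 23.0 to 25.0 CPM. Chance flags about 1 in 20 such groups.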

How the results depend on the processing

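The count of genes called was 0 in edgeR's quasi-likelihood test, 1 with no filter on low counts, 82 with DESeq2 and 172 with the replicate block. With the replicate block 1 of the 9 genes was called, Jund (edgeR adjusted p = 0.0481, log2 fold change 0.96; 0.0481 to 0.763 over its alternatives). Of the 7 lists, the block called 2 genes, Ier3 (adjusted p = 0.0481) and Il1b (0.0464), and DESeq2 called 1, Tnf (0.0499). Same-numbered libraries correlated in their deviations at 0.43, 0.43, 0.75 and 0.052, so the last pair missed 0.1, and malonyl-CoA 5 correlated best with control 1 rather than with its own number. With the GC correction the log2 fold change was -0.029 for Fosl2, -0.036 for Egr1 and -0.076 for Ier2, and without control 5 and malonyl-CoA 4 it was -0.0067 for Fosl2; the cause was not tested. Leaving out single libraries gave -0.24 to 0.035 for Fos and 0.24 to 0.66 for the median of the 9 genes, and no gene was called. Jun and Junb had adjusted p of 0.107 and 0.0883 with DESeq2 (0.0551 to 0.763 and 0.0607 to 0.763 over their alternatives) and kept a positive sign in each. With 4 libraries a group and this spread, the 95% intervals of the 7 other genes include both no difference and, for Jund, Atf3 and Dusp1, a doubling.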

Other observations

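Another 4 genes, chosen after their values were seen, were also low in both libraries numbered 4. Plk2, a kinase of the immediate early class, had 14.4, 18.5, 3.26 and 13 CPM in malonyl-CoA libraries 1, 3, 4 and 5, against 2.05, 12.4, 0.932 and 7.79 CPM in controls. Hmox1, which breaks down haem, had 51.2, 62.7, 14.6 and 52.5 CPM with malonyl-CoA, against 28.1, 53.9, 9.32 and 30.0 CPM in controls. Nr4a3, a nuclear receptor of the immediate early class, had 6.96, 11, 1.70 and 6.33 CPM with malonyl-CoA, against 1.37, 5.38, 0.745 and 3.00 CPM in controls. Mmp13, a collagenase, had 7.21, 10.8, 0.134 and 5.26 CPM with malonyl-CoA, against 0.342, 6.08, 0 and 2.07 CPM in controls. In each of them control 3 lay within the range of the malonyl-CoA libraries, so the groups overlapped. Being picked for this pattern, these genes are no further support for it. Other genes of the same list as Plk2 and Nr4a3 went the other way. Klf4 (81.8 CPM in malonyl-CoA 4, 47.7 CPM in control 4) and Sik1 (36.2 and 25.1 CPM) were highest of their group in both libraries numbered 4.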
